A study of Mus musculus with 4 samples.

Results

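A set of 71 protein-coding genes lay under 2 CPM in both control libraries and at 5 CPM or more in both libraries of Mdivi-1-treated late 2-cell (2C) mouse embryos. They were chosen by exactly these values, where CPM, or counts per 1000000, is the count of a gene scaled by the total count of its library. The 71 genes are 0.341% of the 20805 protein-coding rows in a table of 26022 rows, and 0.896% of the 7925 protein-coding genes that reached 5 CPM in both treated libraries. Because the same comparison chose the genes, their low level in controls and their higher level after treatment are given as a description and not as a tested finding.

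The embryos were of ICR mice, an outbred strain. Control embryos were cultured from the zygote for 16 h in KSOM medium, and treated embryos for the same time with 200 μM Mdivi-1. Each group had 2 libraries, made by Smart-Seq2 from 8 to 10 embryos pooled, and the labels and methods do not state whether the pools were from different litters. The p-values therefore reflect only how far these samples lie apart, which may be technical spread. Library totals ran from 17712075 to 20077326 counts, so that 2 CPM stood for 35.4 to 40.2 counts and 5 CPM for 88.6 to 100.4 counts.

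Mitochondria divide by fission, in which the GTPase DRP1 is drawn to the outer membrane and constricts it. Mdivi-1 is a small molecule used as an inhibitor of DRP1. At the 2C stage the mouse embryo reads its own genome in earnest for the first time while maternal RNA is cleared, and many genes of later cell types are silent. In RNA pooled from several embryos, fewer embryos or cells that express a gene and less RNA per cell cannot be told apart.

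The windows before the transcription start are shown for 6 members: *Npffr2*, which ranked first by its lower treated value; *Ceacam10* and *Cxcr4*, 2 of the leading members whose window was found; *Tyr*, with the highest value of Mdivi-1 replicate 1; and *Htr5a* and *Gstk1*, with no count in either control. Each is the 250 bases upstream of the start in RefSeq, build GRCm38.p6, written 5′ to 3′ along the gene, and capitals mark matches to any of 8 searched motifs on either strand.
Npffr2, chr5:89527179-89527428, + strand: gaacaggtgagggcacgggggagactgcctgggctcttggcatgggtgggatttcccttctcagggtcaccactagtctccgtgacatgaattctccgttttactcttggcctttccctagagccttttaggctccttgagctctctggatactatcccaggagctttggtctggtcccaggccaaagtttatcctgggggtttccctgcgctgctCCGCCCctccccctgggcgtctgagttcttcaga
Ceacam10, chr7:24776917-24777166, + strand: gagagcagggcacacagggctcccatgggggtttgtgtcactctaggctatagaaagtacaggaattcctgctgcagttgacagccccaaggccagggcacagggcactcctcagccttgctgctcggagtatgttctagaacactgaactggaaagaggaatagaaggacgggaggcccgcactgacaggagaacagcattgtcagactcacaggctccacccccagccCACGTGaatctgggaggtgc
Cxcr4, chr1:128592300-128592549, - strand: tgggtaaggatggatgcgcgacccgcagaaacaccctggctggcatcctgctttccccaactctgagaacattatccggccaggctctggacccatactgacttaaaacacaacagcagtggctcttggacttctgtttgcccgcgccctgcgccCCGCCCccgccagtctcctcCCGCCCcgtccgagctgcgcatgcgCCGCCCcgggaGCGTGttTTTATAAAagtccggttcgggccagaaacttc
Tyr, chr7:87493513-87493762, - strand: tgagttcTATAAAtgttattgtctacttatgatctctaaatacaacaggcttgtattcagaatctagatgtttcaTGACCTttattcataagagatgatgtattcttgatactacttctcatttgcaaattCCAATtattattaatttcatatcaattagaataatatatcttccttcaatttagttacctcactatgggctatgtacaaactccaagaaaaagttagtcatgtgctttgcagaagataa
Htr5a, chr5:27841697-27841946, + strand: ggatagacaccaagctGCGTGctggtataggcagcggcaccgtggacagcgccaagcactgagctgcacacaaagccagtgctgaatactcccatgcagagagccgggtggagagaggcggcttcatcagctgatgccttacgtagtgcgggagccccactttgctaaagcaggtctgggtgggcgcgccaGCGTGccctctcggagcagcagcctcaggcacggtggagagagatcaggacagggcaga
Gstk1, chr6:42245685-42245934, + strand: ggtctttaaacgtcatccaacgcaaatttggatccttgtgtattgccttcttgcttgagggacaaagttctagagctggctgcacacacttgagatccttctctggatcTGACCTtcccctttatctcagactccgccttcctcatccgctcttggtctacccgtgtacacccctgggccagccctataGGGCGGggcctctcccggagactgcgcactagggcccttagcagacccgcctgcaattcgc

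The *Npffr2* window held a single GC box, at -34 from the start, and the *Ceacam10* window a single E-box at -20. The *Cxcr4* window held 3 GC boxes, at -95, -75 and -50, a core of the aryl hydrocarbon receptor site at -39, and a TATA box at -30 that also reads as one on the other strand, at -32. The *Htr5a* window held the same receptor core at -234 and -59, and the *Gstk1* window a nuclear receptor core site at -141 and a GC box at -61. In the *Tyr* window a TATA box stood at -243, a nuclear receptor core site at -175 and a CCAAT box at -119. A GC box was thus in 3 of the 6 windows. The *Tyr* window had no CpG and a GC content of 28.8%, against 55.6% to 62% in the windows of *Gstk1*, *Npffr2*, *Ceacam10*, *Cxcr4* and *Htr5a*. A match is a description of letters and not a binding site.

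*Npffr2* encodes a receptor for neuropeptide FF, a G protein-coupled receptor known from pain pathways and feeding. On the annotation GENCODE M21 it lies at chr5:89527429-89583740 on the plus strand. It had 3 and 2 counts in control replicates 1 and 2 (0.149 and 0.109 CPM), and 459 and 446 counts in Mdivi-1 replicates 1 and 2 (25.9 and 24.1 CPM). Both controls were close to 0, and the treated libraries lay close to each other. The ratio of pooled counts scaled by depth was 192, with an exact 95% interval of 81.9 to 592 that covers counting error only. Among genes at 5 CPM or more in both treated libraries it stood at the 42.0 and 40.7 percentiles of CPM, a middling rank. That rank takes no account of gene length. *Npffr2* has 1643 exonic bases, against a median of 4585.5 in those genes. None of the other 9 genes of the neuropeptide FF and RF-amide system reached 5 CPM in any library, and 7 of them, *Npffr1* among them, had no count in any library.

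**Figure D1:**
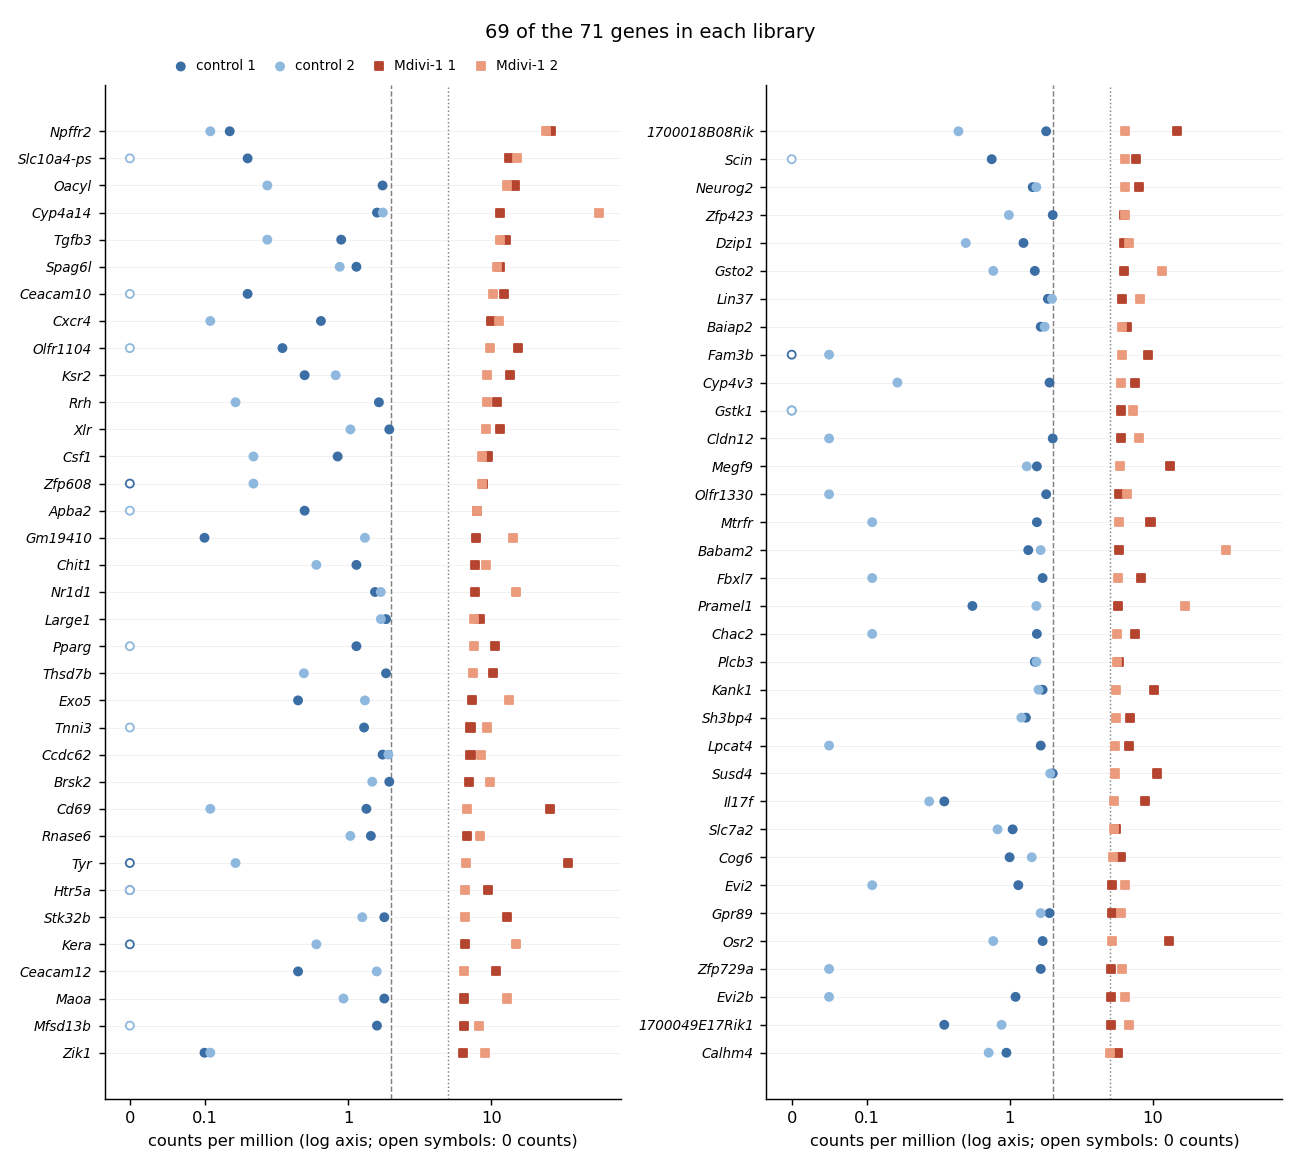
CPM of 69 of the 71 genes (vertical axis, ordered by the lower treated value) in the 2 control libraries (blue circles) and the 2 Mdivi-1 libraries (red squares), on a log axis with 0 drawn at the left edge as open symbols. The dashed line is 2 CPM and the dotted line 5 CPM, the limits that chose the genes. *Npffr2*, at the top, has both treated values at 24.1 CPM or more.

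The plot of the genes by library shows that the treated values of most members sat just above the limit. The median over the members was 7.68 and 7.19 CPM in the treated libraries, against 1.34 and 0.492 CPM in control embryos. In 46 of the 71 genes the lower treated value was under 7 CPM, and in 7 genes both treated values were 10 CPM or more: *Npffr2*, *Slc10a4-ps*, *Oacyl*, *Cyp4a14*, *Tgfb3*, *Spag6l* and *Ceacam10*. All genes that reached 5 CPM in both treated libraries had medians of 33.5 and 33.3 CPM. In 20 members both controls were under 1 CPM, and 15 members had no count in at least 1 control library. The name near-silent thus covers genes from no count up to 40 counts in a control.

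The same limits were applied to the other ways of dividing the 4 libraries into pairs, as plain counts. With control 1 and Mdivi-1 replicate 1 low, 5 genes met them, and 4 with control 1 and Mdivi-1 replicate 2 low. With control 2 low beside either treated library, 17 genes met them. With both treated libraries low and both controls high there were 15 genes. The 71 genes with both controls low were thus more than in any other pairing. The reverse, with 15, gave fewer than the 17 of the mixed pairings with control 2 low. Mixed pairings with control 2 low gave more than those with control 1 low. Control 2 had fewer protein-coding genes at 5 CPM or more, 7796 against 8664 to 8885 in the other libraries, and its part in these counts was not tested.

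**Figure D2:**
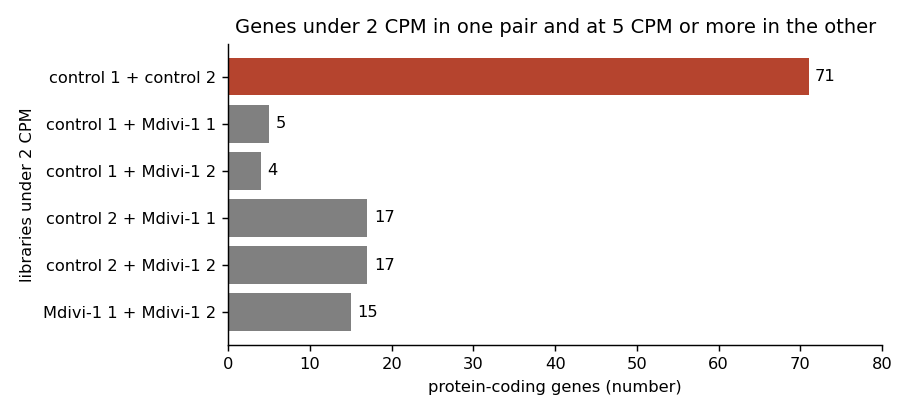
Number of protein-coding genes (horizontal axis) under 2 CPM in the named pair of libraries and at 5 CPM or more in the other pair. The pair of controls gave 71 genes and the other pairs 4 to 17.

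The control libraries differed from each other in these genes. Control 1 was the higher in 49 members and control 2 in 20, and the summed CPM of the members was 81.9 in control 1 and 49.4 in control 2. The treated libraries had summed values of 661 and 663 CPM. They lay within 1.5-fold of each other in 49 members and differed by more than 2-fold in 9: *Cyp4a14*, *Babam2*, *Pramel1* and *Kera* were higher in replicate 2, and *Tyr*, *Cd69*, *Osr2*, *1700018B08Rik* and *Megf9* in replicate 1. The median ratio between the treated libraries was 1.30.

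**Figure D3:**
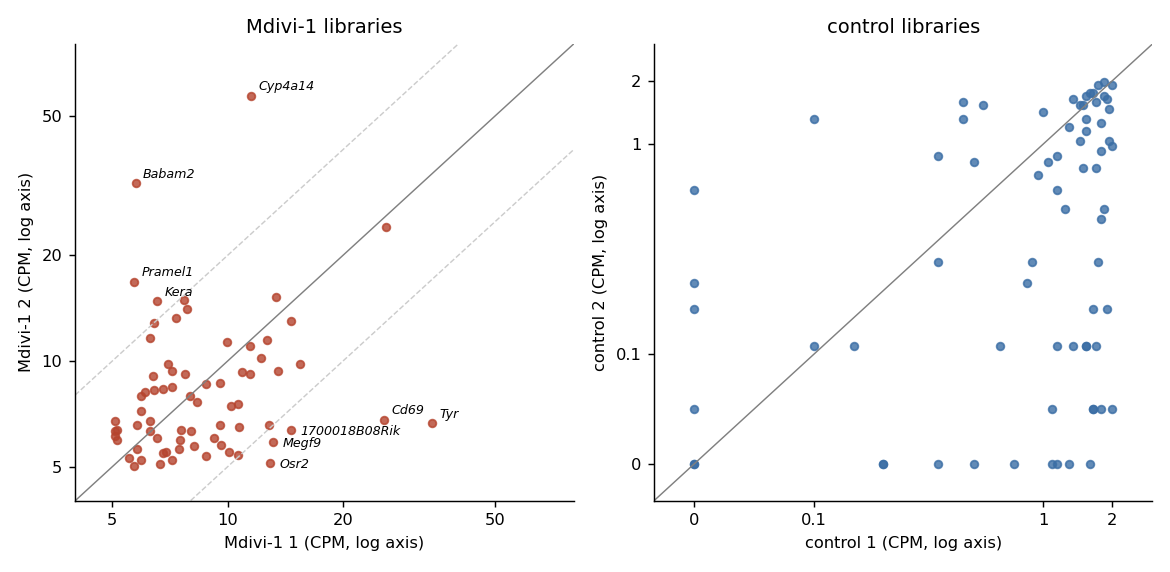
CPM of the 71 genes in Mdivi-1 replicate 1 against replicate 2 (left) and in control 1 against control 2 (right), on log axes, with 0 drawn at the low edge of the control axes. The solid line is equality, the dashed lines mark a 2-fold difference, and the 9 genes beyond them are named, *Cyp4a14* with 11.5 and 56.9 CPM.

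Fitted across all 14259 genes that passed the low-count filter, which all 71 members did, the edgeR quasi-likelihood test called 0 of the 71 members higher, against 0% of all genes tested, at an adjusted p under 0.05 and more than 2-fold. At an unadjusted p under 0.05 and more than 2-fold, 48 members passed in that test, against 7.1% of all genes tested. DESeq2 called 30 of the 71, against 3.23% of all genes tested. Since the limits used the same libraries, nothing is read from these counts. The median log2 fold change of the members was 3.18, with a range of 1.52 to 10.18, and that of all genes 0.03. *Npffr2* had the smallest edgeR adjusted p of the members, 0.109, with a log2 fold change of 7.41 ± 0.71 (SE, n = 2 libraries per group), and a DESeq2 adjusted p of 1.335e-11.

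Receptors made up 7 of the members, of which DESeq2 called 6. Beside this and the calls in the groups by role below stand 30 of all 71 members and 3.23% of all genes tested. These groups were set by hand after the members' values were seen, so nothing is read from calls per group. *Cxcr4* encodes the receptor for the chemokine CXCL12, which guides migrating cells. Its counts were 13 and 2 in control embryos and 177 and 210 in the treated libraries (0.647 and 0.109 against 9.99 and 11.4 CPM). Of the 16 other CXC and CC chemokine receptors, only *Ccr3* reached 5 CPM in any library, with 7.89 CPM in Mdivi-1 replicate 2. *Htr5a*, a serotonin receptor of the nervous system, had no count in either control and 169 and 122 counts in the treated libraries. Set against a floor of 3 counts over the control group, this was 102.7-fold higher. The exact 95% lower limit of the ratio of treated to control, for counting error only, was 83.0. None of the 12 other serotonin receptors reached 5 CPM in any library, and the highest stood at 3.95 CPM. The olfactory receptor *Olfr1104* had 7 and 0 counts in control embryos and 274 and 181 after Mdivi-1. It was 1 of 2 members among 1099 olfactory receptor genes, of which 848 of the non-members had no count in any library and 29 reached 5 CPM in at least 1. *Olfr1330* was the weaker member, with 1.79 and 0.0547 CPM in control embryos and 5.82 and 6.59 CPM after treatment. *Rrh*, an opsin-like pigment of the retina, had 1.64 and 0.164 CPM in control embryos and 10.9 and 9.30 CPM after treatment. *Cd69*, an early activation antigen of lymphocytes, had 25.6 and 6.81 CPM in the treated libraries, which differed by 3.76-fold.

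Secreted proteins counted 6 members, of which DESeq2 called 5. *Tgfb3*, a ligand of the TGF-beta family, had 18 and 5 counts in control embryos and 225 and 213 in the treated libraries (0.897 and 0.274 against 12.7 and 11.5 CPM), with treated values close together. The related ligand *Tgfb2* was no member, since it was already expressed in control embryos, at 139.7 and 96.9 CPM against 410 and 617 CPM, and *Tgfb1* had 1 count in all. *Csf1*, the growth factor of macrophages, had 0.847 and 0.219 CPM in control embryos and 9.54 and 8.65 CPM after treatment. *Il17f*, a cytokine, had 7 and 5 counts in control embryos and 156 and 99 after treatment. The secreted protein *Fam3b* had 0 and 1 counts in control embryos and 163 and 112 after treatment, a ratio of 291 with an interval of 51.8 to 11546. *Chit1*, a chitinase of macrophages, and *Rnase6*, an antimicrobial ribonuclease, had lower treated values of 7.73 and 6.78 CPM.

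Metabolic enzymes and transporters were the largest group set by hand, with 14 members, of which DESeq2 called *Cyp4a14*, *Gstk1*, *Tyr*, *Oacyl* and *Slc10a4-ps*. *Cyp4a14*, a fatty acid hydroxylase known from the liver, had 32 counts in each control and 204 and 1053 in the treated libraries (11.5 and 56.9 CPM), the largest value of any member. The other 7 genes of the *Cyp4a* family in the table had no count in any library. *Gstk1*, a glutathione transferase of mitochondria and peroxisomes, had no count in either control and 105 and 133 after treatment. Set against the same floor, this was 84.0-fold higher, and the exact lower limit of the ratio of treated to control was 67.8. *Tyr*, the enzyme that starts melanin synthesis, had 0 and 3 counts in control embryos and 605 and 123 after treatment, a ratio of 257 with an interval of 87.6 to 1249. The treated libraries of *Tyr* differed by 5.14-fold. *Oacyl*, a probable acyltransferase, had 35 and 5 counts in control embryos and 260 and 240 after treatment. *Slc10a4-ps* had 4 and 0 counts in control embryos and 237 and 282 after treatment, and is listed as protein-coding although its name carries the mark of a pseudogene. *Maoa*, a monoamine oxidase of the outer mitochondrial membrane, had 6.44 and 12.8 CPM after treatment and 1.79 and 0.930 CPM in control embryos. By symbol, 4 members (*Cyp4a14*, *Cyp4v3*, *Gsto2* and *Gstk1*) belonged to the cytochrome P450, UGT or GST families, 5.63% of the members against 0.692% of all protein-coding genes and 0.215% of those at 5 CPM in both treated libraries. Of the 21 other *Gst* genes, 8 reached 5 CPM in at least 1 library, and *Gstp3* had 6.28 and 4.54 CPM in control embryos against 0.847 and 1.14 after treatment. This was 1 of 12 groups formed by symbol alone, so that a gene whose symbol misses the pattern of its group is not counted. Among the 6 groups that held no member were ion channels, homeobox genes and keratins (1.5%, 0.788% and 0.538% of all protein-coding genes). Nothing is read from their lack of members. Symbols of G protein-coupled receptors made up 8.45% of the members, against 8.08% of all protein-coding genes and 0.745% of those at 5 CPM in both treated libraries, with *Gpr89* counted by its name alone. These shares are a description with no test. Of 9 genes tested from a list of 14 of the response to foreign chemicals, edgeR called 0, and DESeq2 called 1, *Tiparp*, against 3.23% of all genes tested. Of the 9, 4 had a positive fold change. None of the 14 is a member, against 0.341% of protein-coding rows, so nothing is read from that. *Cyp1a1* on the list had 0.647 and 0 CPM in control embryos and 2.43 and 3.30 CPM after treatment, under the limit of 5 CPM.

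Transcription and chromatin factors were 10 members, of which DESeq2 called *Pparg*, *Zfp608* and *Zik1*. *Pparg*, the nuclear receptor that drives fat cell formation, had 23 and 0 counts in control embryos and 188 and 140 in the treated libraries (1.15 and 0 against 10.6 and 7.57 CPM). Its relatives stayed under 5 CPM in all libraries, at up to 3.61 CPM. *Nr1d1*, a nuclear receptor of the circadian clock, had 31 counts in each control and 136 and 276 after treatment, and shares 263 exonic bases with *Thra* on the opposite strand, which this library type cannot separate. *Zfp608* had 0 and 4 counts in control embryos and 156 and 159 after treatment, and *Zik1* had 2 in each control and 113 and 168. Both are zinc finger proteins. *Neurog2*, which starts neuron formation, had 1.44 and 1.53 CPM in control embryos and 8.02 and 6.32 CPM after treatment. *Zfp729a* lies 3056 bases from its close copy *Zfp729b*, and reads of such copies can be lost or split when only uniquely mapped reads are counted.

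Signalling enzymes and adaptors were 8 members. *Ksr2*, a scaffold of the RAF-MEK-ERK cascade, had 10 and 15 counts in control embryos and 240 and 173 after treatment, and *Apba2*, a neuronal adaptor of the amyloid precursor protein, had 10 and 0 against 141 and 147. DESeq2 called these and not *Brsk2*, *Stk32b*, *Plcb3*, *Sh3bp4*, *Baiap2* or *Fbxl7*, whose lower treated values ran from 5.51 to 7.001 CPM.

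Adhesion, matrix and membrane proteins were 9 members, with *Ceacam10* and *Kera* called by DESeq2. *Ceacam10*, of the carcinoembryonic antigen family, had 4 and 0 counts in control embryos and 217 and 189 after treatment, and *Ceacam12* had 9 and 29 against 190 and 120. Of the 13 other family genes, *Ceacam20* and *Ceacam1* reached 5 CPM in a library and 5 had no count in any. *Kera*, a proteoglycan of the cornea, had 0 and 11 counts in control embryos and 116 and 274 after treatment. *Evi2* and *Evi2b* share 1831 exonic bases and their counts differ by 1 in every library, so that they count as 1 measurement.

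Cytoskeletal and ciliary genes were 5 members. *Spag6l*, a protein of the sperm tail and cilia, had 23 and 16 counts in control embryos and 203 and 204 after treatment, and *Scin*, an actin-severing protein, had 15 and 0 against 134 and 118. *Tnni3*, troponin of heart muscle, had 26 and 0 against 127 and 173. Genes of DNA repair and organelle upkeep were 6 members. *Babam2*, a subunit of the BRCA1-A and BRISC deubiquitinase complexes, had 27 and 30 counts in control embryos and 102 and 593 in the treated libraries, which lay 5.57-fold apart. The 6 other genes of these complexes each reached 5 CPM in at least 1 library. *Exo5*, an exonuclease, had 9 and 24 against 130 and 245.

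Germline and multicopy genes were 3 members, *Xlr*, *Pramel1* and *Ccdc62*. *Pramel1* had 0.548 and 1.53 CPM in control embryos and 5.70 and 16.8 CPM after treatment, and 38 of the 39 other *Pramel* genes reached 5 CPM in at least 1 library. *Xlr* had 1.94 and 1.04 CPM in control embryos and 11.5 and 9.19 CPM after treatment, and all 9 other *Xlr* genes reached 5 CPM. Of the 95 2C genes from the study's list that were found in the table, 0 were members, against 0.341% of protein-coding rows. In at least 1 library 78 of the 95 reached 5 CPM, and a gene at 2 CPM or more in a control cannot be a member. Nothing is read from this count. The remaining 3 members were gene models, *Gm19410*, *1700018B08Rik* and *1700049E17Rik1*.

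The limits cut through a continuous range of values. The members closest to 2 CPM in controls were *Susd4*, *Zfp423*, *Cldn12* and *Lin37*, with higher control values of 1.97 to 1.99 CPM. Just outside lay *Ms4a6d*, *4930451I11Rik*, *Gnaz* and *Tdo2*. *Ms4a6d* had 1.84 and 2.02 CPM in control embryos and 16.03 and 12.7 CPM after treatment. At the other limit, *Calhm4*, *Zfp729a* and *Evi2b* were among the closest members and had lower treated values of 5.03 to 5.08 CPM. *Cmtm1*, *Kcnh1*, *Dnah6* and *Hes1* lay just outside, with lower treated values of 4.92 to 4.97 CPM.

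Genes near the members were compared on GENCODE M21. In all, 6 members (8.45%) overlapped a gene at 5 CPM or more in both treated libraries, against 9.76% of protein-coding genes, and 14 (19.7%) lay within 10 kb of one, against 28.1%. There were 53 members with neither. Of the 32 distinct non-member genes that overlapped or lay within 10 kb of a member and reached 5 CPM in at least 1 library, 16 had both treated values above both controls (50%), against 30.2% of all such genes tested. DESeq2 called 3 of the 32, *Psenen*, *BC048602* and *Trappc3l*, against 3.23% of all genes tested. *Psenen*, a subunit of gamma-secretase, lies 2025 bases from *Lin37* on the same strand and had 16.3 and 62.7 CPM in control embryos and 243 and 236 CPM after treatment. *Trappc3l* overlaps *Calhm4* on the opposite strand and had 4.98 and 1.48 CPM against 24.3 and 36.5. *Zfp69*, 5120 bases from *Exo5*, had 5.93 and 5.80 CPM against 19.9 and 19.9. Whether reads that run from one gene into the next add to the member's count was not tested.

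The members were not gathered at a few loci. The most on 1 chromosome were 9, on each of chromosomes 5 and 7 (12.7% of the members, against 5.71% and 9.39% of protein-coding genes). *Cxcr4* and *Thsd7b*, *Ccdc62* and *Mtrfr*, and *Evi2* and *Evi2b* were the pairs within 1 Mb of each other. The median exonic length was 3808 bases, against 4585.5 bases for genes at 5 CPM in both treated libraries. Per kilobase of exon, *Npffr2* had the highest level of all members in Mdivi-1 replicate 1, at 15.8 CPM per kb, and *Cyp4a14* in replicate 2, at 21.9 CPM per kb.

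Promoter windows of 300 bases, 250 before the start and 50 after it, were found in RefSeq for 57 of the 71 members, for 16531 protein-coding genes and for 6409 of those at 5 CPM in both treated libraries, taking the first window listed for each gene. The median CpG observed over expected was 0.571 in the members, 0.600 in all protein-coding genes and 0.796 in the expressed ones. Values under 0.4 were found in 28.1%, 37.2% and 14.0%. The members' windows thus lay nearer to those of all protein-coding genes than to those of the genes expressed in treated embryos. On both strands, the TATA box (searched as TATAAA) was in 17.5% of the members' windows, 13.1% of all and 7.15% of the expressed genes' windows. The GC box, searched as GGGCGG, was in 49.1%, 48.0% and 64.0%. The core of the aryl hydrocarbon receptor site, GCGTG, was in 40.4%, 39.5% and 52.8%. The nuclear receptor core site, AGGTCA, was in 12.3%, 14.0% and 12.1%. The E-box, CACGTG, was in 5.26%, 8.16% and 10.4%. The CCAAT box, searched by those letters, was in 36.8%, 39.1% and 40.8%. The core shared by OBOX and PITX factors, TAATCC, was in 1 of 57 windows, and in 6.44% and 6.18% of the others. The CRE, TGACGTCA, was in 1 of 57 windows as well.

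**Figure D4:**
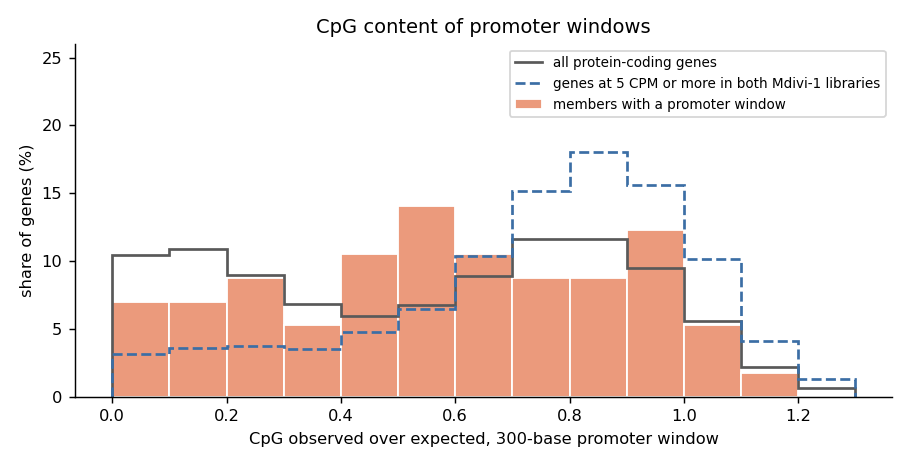
Share of genes (%, vertical axis) by the CpG observed over expected of the promoter window (horizontal axis, steps of 0.1), for the 57 members with a window (bars), all protein-coding genes (grey line) and genes at 5 CPM or more in both Mdivi-1 libraries (dashed blue line). The medians are 0.571, 0.600 and 0.796.

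Markers of other cells were looked at in the same libraries. Of 10 cumulus and granulosa markers, *Amh*, *Has2*, *Ptx3* and *Inha* had no count in any library, and the summed level was 8.52 and 13.9 CPM in control embryos and 18.9 and 23.2 CPM after treatment. Most of that sum came from *Tnfaip6*, with 7.17 and 8.92 against 10.5 and 15.9 CPM. *Star*, with 0 and 4 against 58 and 74 counts, and *Cyp19a1*, with 1.34 and 0.383 against 5.08 and 2.43 CPM, were also higher in both treated libraries. *Fshr* had 0 and 67 counts in control embryos and 0 and 11 after treatment. *Cyp11a1* had 0 and 2 counts against 0 and 6, and *Foxl2* had 11 counts in control 2 alone. Fibroblast markers summed to 3.22 to 7.78 CPM, with *Col3a1*, *Dcn* and *Lum* at 0. Most of that sum came from *Thy1*, with 4.63 and 3.34 CPM in control embryos and 2.20 and 5.35 CPM after treatment. *Col1a2* had 0 counts in both controls and 18 and 17 after treatment, and *Col1a1* had counts in Mdivi-1 replicate 2 alone (28). Sperm markers summed to 1.04 to 6.38 CPM, with *Tnp2* at 0. Blood markers summed to 48.8 to 66.2 CPM with *Hbb-bs* and *Hbb-bt* at 0, nearly all of it from *Hba-a1*. Oviduct markers summed to 254 to 377 CPM, nearly all from *Epcam*, with *Foxj1* at 0. Trophectoderm and inner cell mass markers had 14.2 and 15.4 CPM against 33.5 and 34.4, with *Cdx2* at 0. *Gata3*, with 11.5 and 7.88 against 27.8 and 23.3 CPM, and *Sox2*, with 2.64 and 0.821 against 5.59 and 7.41 CPM, carried that difference, while *Krt8* and *Krt18* had counts in control 2 and Mdivi-1 replicate 2 alone. The late 2C markers, which check the label, summed to 725 and 830 CPM in control embryos and 1571 and 2127 CPM after treatment. Among them the groups overlapped for *Tcstv3*, with 187 and 473 CPM in control embryos and 432 and 459 CPM after treatment. Oocyte markers summed to 1637 and 2586 against 3659 and 4697. The oocyte sum came mainly from *Oosp1*, with 1047 and 1974 against 2526 and 3316 CPM, and *Bmp15*, with 201 and 228 against 697 and 1011 CPM. *Zp3* was lower after treatment, with 216 and 225 against 157 and 103 CPM, and the groups overlapped for *Nlrp5*. No marker on these lists is a member. Whether the marker sums that were higher after treatment have a part in the members' levels was not tested.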

How the data were processed

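RNA of late 2C embryos was measured in 2 control and 2 Mdivi-1 libraries. Per the methods, the authors used cutadapt 1.16 for trimming and STAR for mapping and for counting uniquely mapped reads per gene, with GENCODE M23; the labels name mm10. The deposited raw counts were used. The deposited size-factor-divided values and the authors' DESeq2 fold changes and p-values were not used.

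The members and lists were chosen with earlier results of these data known, and the groups by role, the gene families and the motifs after the members' values were seen. CPM was taken over all rows. Genes passing filterByExpr (minimum count 10) were scaled by TMM factors and fitted in edgeR 4.0.16 (two-sided quasi-likelihood test, Benjamini-Hochberg over 14259 genes) in R 4.3.3, with DESeq2 1.42.0 and limma 3.58.1 as alternatives. DESeq2 filtered independently at 0.05, the call threshold. Its default of 0.1 had been run first and was replaced after the count of calls it gave over all genes was seen to differ from an earlier analysis of the same data. Standard errors were worked back from the edgeR test. All tests were tried on simulated counts. Named genes were *Npffr2* and the members with the largest lower treated CPM, and others by role. Genes near members are from GENCODE M21 on GRCm38. Of the members, 2 are counted but not reported by name here.

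Replicates differed by far more than counting error (chi-square per degree of freedom 128.6 in controls, 57.5 in treated libraries). Each library entered the fits as a separate sample of its group. Intervals and floors cover counting error only. The alternatives were other scalings, filters, limits, tests, a replicate block and each library left out.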

Additional observations from a re-analysis of the deposited data

How the results depend on the processing

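The number of members rests on the limits. With CPM under 1 and 5 or more, 20 genes met them, with under 2 and 10 or more 7, and with under 2 and 2 or more 372. Without 1 library, which leaves fewer conditions to meet, the number was 136 to 308: 308 without control replicate 1, 136 without control replicate 2, 170 without Mdivi-1 replicate 1 and 239 without Mdivi-1 replicate 2. Scaling by TMM or by DESeq2's size factors gave 60 genes each, 56 of them members.

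The edgeR quasi-likelihood test called 0 members. It called 25 with no low-count filter, beside 455 of 18702 genes in all. The edgeR likelihood ratio test called 29, beside 512 of 14259 genes, and DESeq2 30, beside 461 of 14259. DESeq2 with independent filtering at its default of 0.1, an alternative added after seeing the data, also called 30, and 455 genes higher in place of 461. limma-voom called 0 members but 125 of 14259 genes, whereas the quasi-likelihood test called no gene. Without 1 library the calls were 0 to 1, with the 1 call made without control replicate 2. Where a group is left with 1 library, that library is assumed to vary like the other group. With a replicate block, 0 members were called, the smallest adjusted p in edgeR was 0.0626 and the median log2 fold change was 3.65. With 2 numbers per group the correlation of same-numbered deviations across genes was 0.008, so the numbers are not shown to pair the samples. The median log2 fold change of the members was 2.59 to 3.82 with a library left out. Its sign is fixed by the limits that chose the members and says nothing of stability. Having 2 libraries per group limits the precision of every spread given.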
